A study of Mus musculus with 2 samples.

Results

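The expression of 10 genes that cells switch on within minutes of a disturbance was measured in single cells of mouse small intestinal epithelium. The members were taken by name, as Fos, Fosb, Jun, Junb, Egr1, Atf3, Ier2, Ifrd1, Hspa1a and Hspa1b, and each matched 1 of the 55357 gene rows. Immediate early genes need no new protein to be transcribed, since growth factor, calcium and stress kinases act on transcription factors already bound at their promoters. The Fos and Jun families pair into the AP-1 transcription factor, and Hspa1a and Hspa1b encode the inducible Hsp70 chaperones that refold damaged proteins. Enzymatic dissociation of a tissue is known to switch on several of these genes, and some of them are also known to be transcribed in enterocytes near the villus tip, where cells age and are shed.

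The 1 control library came from Adipfl/fl mice, whose adiponectin gene is flanked by loxP sites and which carry no Cre, and the 1 Cre library from Adipfl/flpVilli-CreT mice, whose villin promoter drives Cre in the intestinal epithelium and not in T cells or myeloid cells. Both were pooled samples of male mice at 8 weeks of age with no treatment named in the labels. The authors describe the material as small intestinal epithelium enriched for crypts. Cut tissue pieces were digested for 20 min with collagenase IV, papain and DNase I. Red blood cells were then lysed, and dead cells were removed with magnetic beads after a further incubation. Because each genotype had 1 library, genotype and the handling of 1 sample cannot be told apart. Intervals given here are exact 95% intervals that cover counting error only, and no test between the libraries was possible. The targeted gene, Adipoq, had 0 UMIs in the kept cells of both libraries, which allows up to 0.117 CPM in the control and 0.0614 CPM in the Cre library, so it did not check the genotype labels.

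The deposited values were counts of unique molecular identifiers (UMIs), each the tag of 1 captured transcript molecule, made with a droplet assay that reads the 3′ ends of transcripts. The control library held 9791 barcodes and 42150623 UMIs and the Cre library 11838 barcodes and 63370798 UMIs. A barcode counted as a cell when it held over 500 genes and less than 25% of its UMIs were mitochondrial, which left 3069 and 5555 cells with median depths of 4838 and 4749 UMIs. The libraries shared 31 barcodes, of which 3 were among the kept cells. Levels are the UMIs of a gene in all cells of a class, scaled to a class total of 1000000 (CPM). They were not divided by transcript length, so that each gene is compared with itself across classes and not with other genes.

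Cells were grouped without using the 10 genes or the related lists described below. The classes were named after their markers and include stem-like cells (44 in the control and 121 in the Cre library), cycling-like cells (43 and 99), villus bottom-like (141 and 317), mid-villus-like (1037 and 1665) and villus tip-like enterocytes (465 and 1410), goblet-like (225 and 409), tuft-like (76 and 62), enteroendocrine-like (55 and 57), T cell-like (361 and 438) and myeloid-like cells (62 and 31). Cluster 1 (422 and 696 cells) was an enterocyte cluster led by Ubd and Susd2 that carried 3 of the 8 listed villus tip markers. Cluster 10 (107 and 114) carried both T cell and cycling markers. The goblet-like cluster carried all 7 listed goblet markers and also 7 of the 9 listed Paneth markers, so its levels may mix both cell types. The stem-like cluster carried all 11 listed stem markers and all 12 cycling markers. It also carried 5 of 9 Paneth, 5 of 5 fibroblast and 4 of 4 smooth muscle markers, so its levels may mix cell types as well. The villus tip-like cells were 465 of 3069 control and 1410 of 5555 Cre cells. Median depth was 23286 UMIs in the villus bottom-like cluster but 3662 and 3630 UMIs in the 2 villus tip-like clusters.

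The DNA just before the start of transcription is shown for 5 members that stand for the patterns below. Signals that reach these genes act partly there. Fos is the classical serum- and calcium-induced gene, Jun and Atf3 rose along the villus in these data, Ifrd1 had the steepest rise, and Hspa1a is the heat-induced gene. The RefSeq promoter table of GRCm38.p6, the build to which the reads were assigned under its other name mm10, held 8 of the 10 members. Egr1 and Ier2 had no entry. Each sequence below is the 150 bases before the start given there, on the gene's own strand. For Atf3 and Ifrd1 this start lies inside the annotated gene (chr1:191170296-191218039 and chr12:40201567-40248504). A start farther upstream is therefore annotated for both and was not searched. Fos lies at chr12:85473740-85473889 (plus strand), Jun at chr4:95052223-95052372 (minus), Atf3 at chr1:191183334-191183483 (minus), Ifrd1 at chr12:40223190-40223339 (minus) and Hspa1a at chr17:34972157-34972306 (minus). Capitals mark matches on either strand to TGACG, the core of the cyclic AMP response element. They also mark GAANNTTC, a pair of heat shock element units. The general promoter boxes CCAAT and, separately, TATAAA are in capitals too. TGACG also lies within the full element TGACGTCA.
Fos: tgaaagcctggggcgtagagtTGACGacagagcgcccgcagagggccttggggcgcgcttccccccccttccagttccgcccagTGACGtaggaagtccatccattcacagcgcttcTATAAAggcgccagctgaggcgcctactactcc
Jun: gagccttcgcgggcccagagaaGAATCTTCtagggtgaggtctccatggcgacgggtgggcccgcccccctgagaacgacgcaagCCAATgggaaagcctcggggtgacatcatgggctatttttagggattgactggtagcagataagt
Atf3: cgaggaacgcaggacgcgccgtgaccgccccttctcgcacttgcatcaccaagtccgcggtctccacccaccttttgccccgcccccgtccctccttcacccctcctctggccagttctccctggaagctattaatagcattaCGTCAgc
Ifrd1: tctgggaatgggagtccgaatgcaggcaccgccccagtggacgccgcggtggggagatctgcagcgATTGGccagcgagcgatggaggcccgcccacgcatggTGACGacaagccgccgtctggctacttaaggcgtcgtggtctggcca
Hspa1a: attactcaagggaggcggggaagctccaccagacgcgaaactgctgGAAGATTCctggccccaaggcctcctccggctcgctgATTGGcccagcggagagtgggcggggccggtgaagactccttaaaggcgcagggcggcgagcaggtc
The core TGACG was found in the windows of 5 of the 8 members with an entry, Fos, Fosb, Junb, Atf3 and Ifrd1, and in 13.3% of all 32851 windows of the same length. The Fos window held it at 2 places. The heat shock unit pair GAANNTTC was found in Jun, Hspa1a and Hspa1b and in 3.95% of all windows. CCAAT was present in 5 members and in 24.5% of all windows, and TATAAA in Fos alone of the 8 and in 7.57% of all windows. The full element TGACGTCA (1.36% of all windows), the AP-1 site TGANTCA (4.24%), the inverted unit pair TTCNNGAA (4.21%) and the CArG box bound by serum response factor (0.916%) had no match in any of the 8 windows. These matches are descriptions of letters in a short window. Only the spellings named here were searched, so sites of another spelling or farther than 150 bases upstream would not be seen. They do not show that a factor was bound.

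The Hsp70 pair lies on chromosome 17, with 9951 bases between Hspa1b and Hspa1a. Their 150-base windows differed at 1 base, and their annotated transcripts of 2967 (Hspa1a) and 2803 bases (Hspa1b) were identical at 92.9% of 2737 aligned bases. The last 500 bases of each transcript shared no run of 30 bases with the other. Reads from the shared upstream part cannot be assigned to either gene, so their sum is given beside each.

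Across cell types the immediate early genes differed in level, and their orders over the classes were not alike. After thinning each cell to 2000 UMIs and leaving out 179 control and 296 Cre cells below that depth, 92.8% (91.8 to 93.7) of 2890 control cells and 94.3% (93.7 to 94.9) of 5259 Cre cells had a UMI of at least 1 of the 8. No class here lacks these genes, and the barcodes with at most 500 genes also held them, so that free RNA cannot be told apart from expression in this share. Without thinning, the detection of any single member also reflects depth, and the levels below are therefore in CPM. The summed level of the 8 genes in the control and Cre libraries was highest in myeloid-like cells (9150 and 11447 CPM), then in enteroendocrine-like (7413 and 6049) and villus tip-like cells (5922 and 6216), and lowest in tuft-like (1184 and 1487) and stem-like cells (1282 and 1586). The highest 3 and the lowest 2 classes were the same in both libraries, and the order within the highest 3 differed in that the tip-like cells of the Cre library were above its enteroendocrine-like cells.

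Fos, the founding partner of AP-1, was at 2094 (control) and 2673 CPM (Cre) in myeloid-like cells and at 1676 and 1235 CPM in enteroendocrine-like cells, the hormone-secreting cells of the epithelium. In enterocytes it varied little, between 684 CPM in villus bottom-like and 890 CPM in villus tip-like control cells. Stem-like cells (284 and 406 CPM), tuft-like cells (233 and 453 CPM) and cluster 10 (407 and 431 CPM) were at the low end in both libraries. At 2000 UMIs, 14.3% of 70 tuft-like control cells and 27.9% of 61 tuft-like Cre cells had a Fos UMI, against 79.1% and 76.6% of goblet-like cells.

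Fosb, a related partner of Jun proteins that often follows sustained signalling, was highest in enteroendocrine-like cells (948 and 812 CPM), followed by goblet-like (676 and 621 CPM) and myeloid-like cells (635 and 649 CPM), whose intervals overlapped in each library. In the goblet-like cells, which also carried Paneth markers, it was above villus bottom-like (130 and 133 CPM), mid-villus-like (116 and 108 CPM) and tip-like cells (255 and 381 CPM). The intervals did not overlap in either library.

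Jun, the main DNA-binding partner of AP-1 and a target of the stress-activated kinase JNK, was high in villus tip-like (1494 and 1376 CPM), enteroendocrine-like (1433 and 1198 CPM) and myeloid-like cells (1289 and 1822 CPM). The low end held cluster 10 (221 and 175 CPM), cycling-like cells (243 and 265 CPM), stem-like cells (273 and 314 CPM), tuft-like cells (260 and 256 CPM) and T cell-like cells (273 and 263 CPM), whose counting intervals all overlapped in the control library.

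Junb, which can restrain Jun and has roles of its own in lymphocytes, had a different order. It was at 2628 and 2897 CPM in myeloid-like cells and 1756 and 1641 CPM in T cell-like cells, and 84.2% of 341 control and 87.7% of 390 Cre T cell-like cells had a Junb UMI at 2000 UMIs. In villus bottom-like enterocytes it was at 363 and 332 CPM. Among epithelial classes the highest level was in enteroendocrine-like cells (1015 and 724 CPM) and the lowest in stem-like cells (198 and 170 CPM).

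Egr1, a zinc finger factor induced by the ERK pathway, and Ier2, a small nuclear protein induced by the same signals, had nearly the same pattern. Egr1 was at 1138 and 1661 CPM in myeloid-like cells, 1081 and 1016 CPM in enteroendocrine-like cells and 484 and 454 CPM in goblet-like cells. It was lowest in cluster 1 (25.5 and 45.5 CPM). Villus tip-like (82.2 and 90.8 CPM) and tuft-like cells (82.5 and 104 CPM) came next, with overlapping intervals in each library. Cluster 10 (94.2 CPM) overlapped both in the control library. Ier2 was at 810 and 666 CPM in enteroendocrine-like cells and at 83.1 and 88.4 CPM in cluster 1. Over the 12 classes with at least 30 cells in each library, taken in both libraries (24 points that share depth and free RNA within a library), the log2 levels of Egr1 and Ier2 had a Pearson r of 0.94, the highest of the 45 pairs of members. Egr1 and Ifrd1 had an r of -0.09 and Jun and Atf3 one of 0.87.

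Atf3, a stress-induced repressor of the CREB family, was at 611 and 659 CPM in villus tip-like and 581 and 810 CPM in myeloid-like cells, whose intervals overlapped in the control library. T cell-like cells (14.4 and 41.3 CPM) and cluster 10 (5.84 and 15.7 CPM) were lowest. Ifrd1, a transcriptional co-regulator, was concentrated in the villus tip-like cells at 1998 and 2126 CPM. The next class reached 234 CPM in the control library (goblet-like) and 318 CPM in the Cre library (cluster 1). At 2000 UMIs, 81.4% of 452 control and 86.2% of 1332 Cre tip-like cells had an Ifrd1 UMI, against 11.7% and 16.4% of T cell-like cells, which also held UMIs of the enterocyte gene Apoa1 (1829 and 4111 CPM).

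The inducible Hsp70 genes were near the limit of detection. Over all kept cells Hspa1a had 90 UMIs in the control and 182 in the Cre library, and Hspa1b 154 and 355, so that their sum was 9.50 (control) and 10.98 CPM (Cre). In myeloid-like cells Hspa1a was at 65.8 CPM (38.3 to 105) in the control and 76.8 CPM (38.3 to 137) in the Cre library, from 17 UMIs in 5 cells and 11 UMIs in 3 cells. In the other 11 classes it was at most 6.32 and 5.89 CPM, and in the unnamed crypt sub-cluster c2 of the Cre library it was at 43.2 CPM (24.7 to 70.1), which overlaps the myeloid-like interval. Hspa1a had 0 UMIs in the control cycling-like cells, which allows up to 2.24 CPM, and 0 UMIs in the control tuft-like cells, which allows up to 4.85 CPM. Hspa1b was at 27.1 CPM in myeloid-like control cells and 20.9 CPM in myeloid-like Cre cells. The plot of member levels by cell class shows these patterns for both libraries.

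**Figure D1:**
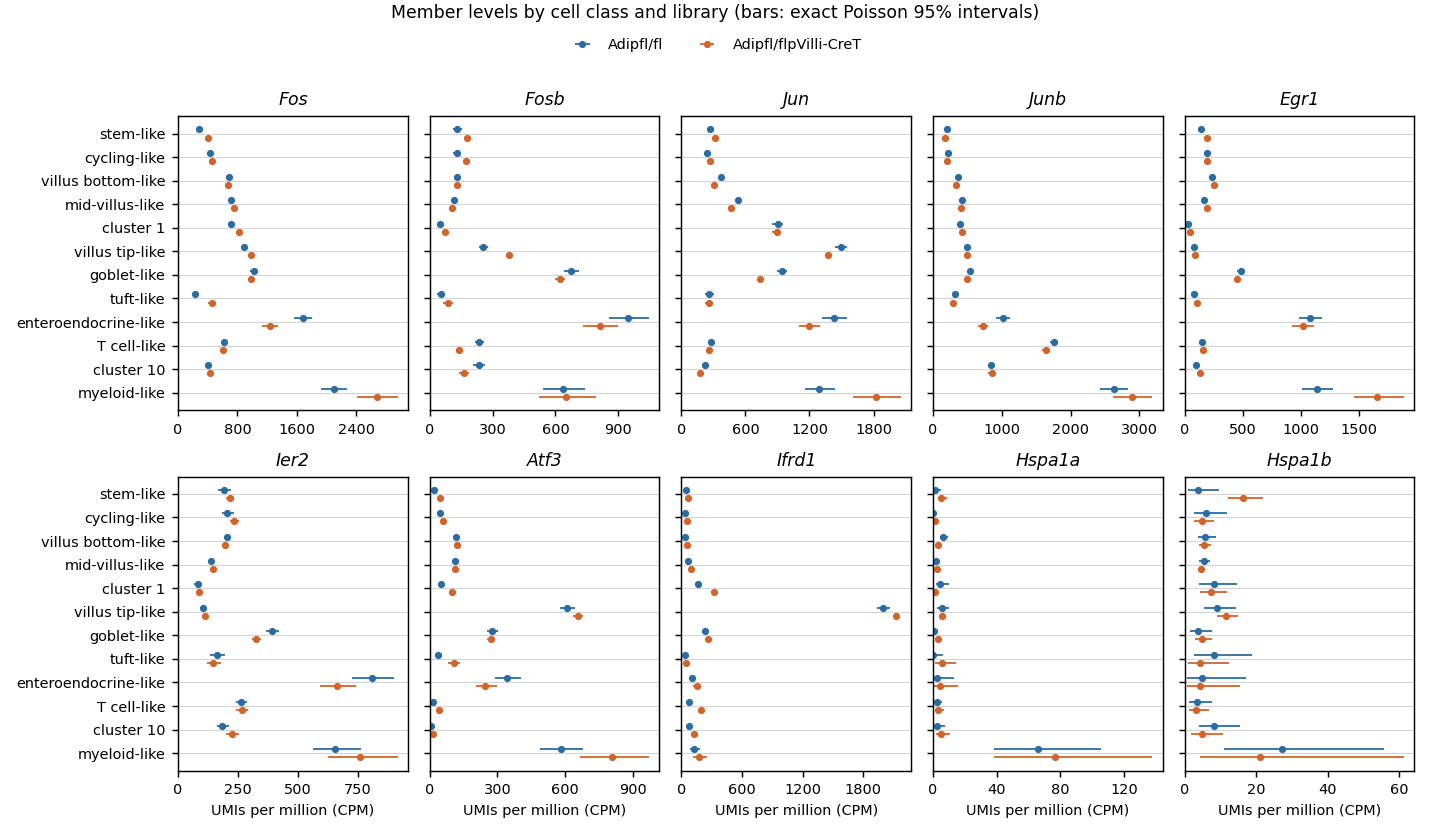
Level of each of the 10 genes (x axis, CPM) in the 12 classes with at least 30 cells in each library (y axis), for the control (blue) and Cre (orange) libraries, with exact Poisson 95% intervals as bars and a separate x scale for each gene. Ifrd1 stands out in villus tip-like cells (1998 and 2126 CPM), Junb in T cell-like and myeloid-like cells, and Hspa1a in myeloid-like cells.

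Along the villus the genes parted into those that rose, those that fell and those that changed little. The comparison of villus tip-like with villus bottom-like enterocytes asks which of these genes belong to the end of enterocyte life. A gene was counted when it was at least 2-fold higher in tip-like cells, at 50 CPM or more in the higher class and with 20 or more UMIs. By this rule 3 of 8 members were higher in the control library (Jun, Atf3 and Ifrd1), where 18.6% of 3663 genes were, and 4 of 8 in the Cre library (the same genes and Fosb), where 18.1% of 3663 genes were. Ifrd1 was at 1998 CPM in tip-like and 39.7 CPM in bottom-like control cells, a ratio of 50.3 (42.9 to 59.4), and at 2126 and 53.5 CPM in the Cre library, a ratio of 39.7 (36.3 to 43.6). Atf3 had ratios of 5.31 (4.76 to 5.92) in the control and 5.41 (5.06 to 5.79) in the Cre library, and Jun ratios of 4.04 (3.79 to 4.30) and 4.48 (4.29 to 4.67). For Fosb the ratio was 1.96 in the control and 2.87 in the Cre library. Fos (1.30 and 1.45) and Junb (1.35 and 1.49) were modestly higher at the tip.

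Egr1 went the other way, with 82.2 CPM in tip-like and 238 CPM in bottom-like control cells (ratio 0.345, 0.291 to 0.408) and 90.8 and 253 CPM in the Cre library (ratio 0.359, 0.325 to 0.395). Ier2 fell as well, to ratios of 0.514 and 0.566. The sum of the 8 genes was 2.76 times (2.68 to 2.84) as high in tip-like as in bottom-like cells of the control library and 3.002 times (2.95 to 3.06) in the Cre library. Ifrd1 (1998 and 39.7 CPM in the control) and Jun (1494 and 370 CPM) had the largest differences in CPM among the 8 and so weigh most in this sum. Tip-like control cells had a median of 3880 UMIs and a mitochondrial share of 19.9%, against 24632 UMIs and 5.41% in bottom-like control cells, and the part of this in the ratios was not tested. Under a mitochondrial limit of 10% in place of 25%, the cells were clustered and named again, which gave 28 control and 65 Cre tip-like cells. These are mostly other cells, since nearly all tip-like cells above had a mitochondrial share over 10%. The ratio of the sum was then 1.13 (0.999 to 1.27) in the control and 2.30 (2.18 to 2.42) in the Cre library. The Hsp70 sum was at 14.6 CPM in tip-like and 12.1 CPM in bottom-like control cells, a ratio of 1.21 (0.733 to 1.95), and at 17.5 and 8.88 CPM in the Cre library, a ratio of 1.97 (1.45 to 2.68).

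When the enterocytes of both libraries were ordered by villus tip against villus bottom landmark genes and divided into 5 zones of equal cell number, Ifrd1 rose through 37.9, 41.9, 174, 718 and 2168 CPM in the control and 53.0, 94.8, 361, 1067 and 2341 CPM in the Cre library. Jun rose through 437, 494, 675, 1078 and 1580 CPM in the control library and through 332, 483, 775, 1049 and 1490 CPM in the Cre library. Atf3 stayed between 84.2 and 132 CPM over the lowest 3 control zones and then reached 279 and 590 CPM. In the Cre library Atf3 was at 116, 106, 160, 330 and 721 CPM. Egr1 fell through 244, 141, 67.0 and 47.3 CPM and was at 87.4 CPM in the last control zone. In the Cre library Egr1 was at 238, 189, 97.4, 78.1 and 93.4 CPM. Fosb in the Cre library stayed near 110 and 119 CPM in the lowest zones and reached 412 CPM in the last, against 267 CPM in the control. The zones are ranges of a score and not cell types, and between 185 and 297 cells lay within 0.02 of a boundary.

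**Figure D2:**
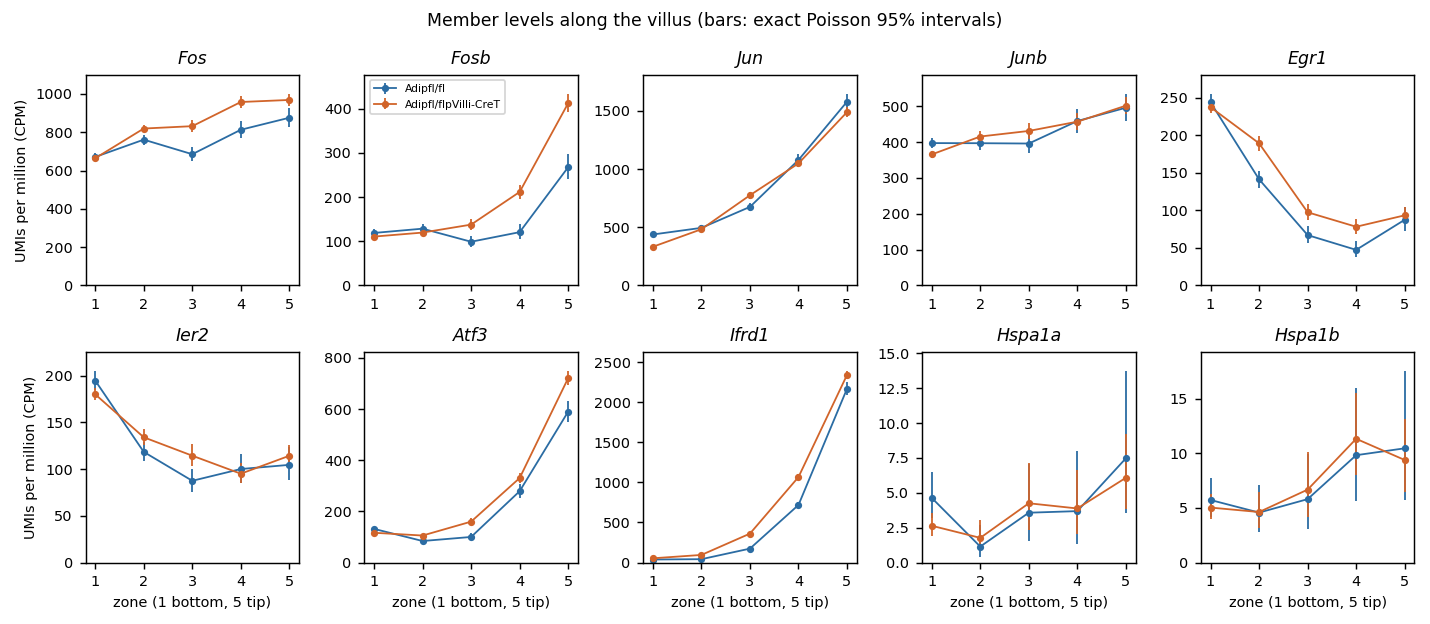
Level of each gene (y axis, CPM, from 0) in 5 zones of enterocytes ordered from villus bottom (zone 1) to tip (zone 5) on the x axis, for the control (blue) and Cre (orange) libraries, with exact Poisson 95% intervals as bars. Ifrd1, Jun and Atf3 climb to 2168, 1580 and 590 CPM in the last control zone, while Egr1 and Ier2 are highest in zone 1.

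Between the libraries most of these genes were at nearly the same level over all kept cells. The libraries differed in the share of barcodes kept (31.3% in the control and 46.9% in the Cre library) and in the median mitochondrial share of all barcodes (31.5% and 25.5%), and the part of this in the levels was not tested. Over all kept cells the sum of the 8 immediate early genes was 2823 CPM (control) and 2867 CPM (Cre), a fold of 1.02 (1.01 to 1.02), but under a mitochondrial limit of 10% the fold was 0.888 (0.878 to 0.899). The Hsp70 sum had a fold of 1.16 (0.992 to 1.35). Fos was at 717 and 739 CPM, Jun at 590 and 551 CPM, Egr1 at 206 and 213 CPM, Fosb at 203 and 201 CPM and Ier2 at 194 and 184 CPM. Junb was 0.839-fold in the Cre library (541 and 454 CPM), and weighting the clusters of the Cre library as in the control brought it to 0.961-fold. Atf3 was at 147 and 178 CPM, a fold of 1.21 (1.16 to 1.26).

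Over all kept cells, Ifrd1 alone of the 8 members at 50 CPM or more passed a fold of 1.5. It was at 225 CPM in the control and 347 CPM in the Cre library (1.54-fold, 1.49 to 1.59). Over all 3264 genes at this level, 0.643% were at least 1.5-fold higher and 2.05% at least 1.5-fold lower in the Cre library, and no member was lower. With the levels of 18 clusters weighted alike in both libraries, the Ifrd1 fold was 1.26 and no member passed 1.5. The Cre library held more villus tip-like cells, in which Ifrd1 was at nearly the same level in both libraries (1.06-fold, 1.03 to 1.10).

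Within classes the Ifrd1 folds ranged from 1.06 in villus tip-like to 2.52 in T cell-like cells. It was 1.06-fold in villus tip-like cells, where no member passed 1.5 in either direction and 2.6% of 2194 genes were higher and 1.37% lower. In mid-villus-like cells it was at 61.3 and 97.3 CPM (1.59-fold, 1.44 to 1.75) and was the one member called over the whole class. There 1.01% of 3059 genes were higher and 0.392% lower. Fosb was 0.930-fold and Egr1 1.16-fold over this class. In its cluster 0 (495 and 632 cells), however, Fosb was at 66.7 and 119 CPM (1.79-fold, 1.47 to 2.17). Egr1 was at 57.1 and 103 CPM there (1.81-fold, 1.47 to 2.24). The share of all genes was not computed in cluster 0. In villus bottom-like cells Ifrd1 was at 39.7 and 53.5 CPM (1.35-fold, 1.12 to 1.62), with no member called and 0.886% of 3274 genes higher and 0.244% lower. In T cell-like cells it was at 78.1 and 197 CPM (2.52-fold, 2.06 to 3.09), where 6.65% of 3442 genes were higher and 1.6% lower. In cluster 1 it was at 160 and 318 CPM (1.99-fold, 1.70 to 2.32), and in tuft-like cells at 34.0 and 44.3 CPM (1.30-fold, 0.726 to 2.39). Atf3 also passed 1.5 in cluster 1, at 50.9 and 97.5 CPM (1.91-fold, 1.45 to 2.55), and the share of all genes was not computed there.

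Some transcripts of the villus tip were also higher in the Cre library in these classes and others were not. Ly6m, Ada and Lama3 were the 3 genes most like Ifrd1 over the same classes and libraries. Their folds are therefore not independent of the Ifrd1 folds. Slc28a2, Nt5e and Apoa4 were named after their values were seen. Ada, adenosine deaminase and one of the landmark genes of the tip, was 1.88-fold in mid-villus-like cells (88.9 and 167 CPM), 2.15-fold in villus bottom-like cells (32.4 and 69.5 CPM) and 3.40-fold in T cell-like cells (96.5 and 328 CPM). In villus tip-like cells Ada was 1.03-fold (6036 and 6218 CPM). Ly6m was 2.75-fold in mid-villus-like, 1.68-fold in villus bottom-like, 4.58-fold in T cell-like, 2.07-fold in cluster 1 and 1.03-fold in tip-like cells. Lama3 was 1.08-fold (0.910 to 1.29) in mid-villus-like cells, 8.09-fold in T cell-like cells (10 and 90 UMIs) and 0.830-fold in tip-like cells. Nt5e was 1.43-fold in mid-villus-like, 1.03-fold (0.748 to 1.44) in villus bottom-like, 1.31-fold in T cell-like and 0.806-fold in tip-like cells, and Slc28a2 was 1.38-, 1.30-, 1.78- and 0.852-fold in the same classes. Apoa4, an apolipoprotein of villus enterocytes, was 2.36-fold in T cell-like cells (650 and 1532 CPM) but 0.685-fold in mid-villus-like cells. The part of free enterocyte RNA in the Ifrd1 folds of these classes was not tested.

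Fosb was lower in the T cell-like cells of the Cre library, at 237 and 140 CPM (0.592-fold, 0.506 to 0.691), the one lower call among the 7 members measured there, beside 1.6% of all genes. The 3 T cell-like clusters gave 112 and 86.9 CPM, 464 and 221 CPM, and 328 and 180 CPM, so that all were lower in the Cre library, and the smallest difference had an interval of the fold from 0.580 to 1.03. As a mean of per-cell CPM the Fosb fold in T cell-like cells was 0.714. In villus tip-like cells Fosb was higher in the Cre library (255 and 381 CPM, 1.49-fold, 1.36 to 1.65), just under the 1.5-fold rule, and in the 2 tip-like clusters it was 1.48-fold and 1.68-fold. In tuft-like cells it was at 51.8 and 85.7 CPM (1.66-fold, 1.06 to 2.63), and Fos was at 233 and 453 CPM there (1.94-fold, 1.59 to 2.38). Atf3 had the largest fold of the members called in tuft-like cells, at 37.2 and 106 CPM (2.84-fold, 1.76 to 4.76). The share of all genes was not computed in tuft-like cells. The summed T cell markers in tuft-like cells were at 35.6 CPM in the control, with 5 of them at 0, and 257 CPM in the Cre library, with 0 at 0, and their part in these folds was not tested.

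In goblet-like cells none of the 8 members at 50 CPM passed 1.5 in either direction, while 8.6% of 2778 genes were higher and 1.48% lower in the Cre library. The median log2 fold of the 8 members in goblet-like cells was -0.11 and that of all genes 0.12. The Hsp70 sum in goblet-like cells was at 4.22 and 8.07 CPM (1.91-fold, 0.856 to 4.82). In stem-like cells, the cells that renew the epithelium, none of the 7 members at 50 CPM passed 1.5 either, where 1.51% of 3635 genes were higher and 1.68% lower. Fos was at 284 and 406 CPM in stem-like cells (1.43-fold, 1.26 to 1.63), Egr1 at 137 and 190 CPM (1.39-fold, 1.15 to 1.68) and Fosb at 132 and 179 CPM (1.35-fold, 1.12 to 1.64), and the median log2 fold of the 7 measured members was 0.44, against -0.01 for all genes. Below 50 CPM, Atf3 was at 20.9 and 45.8 CPM in stem-like cells (2.19-fold, 1.39 to 3.62) and the Hsp70 sum at 4.75 and 21.7 CPM (5 and 62 UMIs, 4.56-fold, 1.85 to 14.6). The summed fibroblast markers were at 0 CPM in stem-like control cells, with all 5 at 0, and at 158 CPM in stem-like Cre cells. The smooth muscle sum was at 0 CPM in stem-like control and 169 CPM in stem-like Cre cells. The T cell sum was at 33.3 and 231 CPM. The part of these other cell types in the folds of this class was not tested.

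In enteroendocrine-like cells the sum of the 8 genes was 0.816-fold (0.775 to 0.859) in the Cre library. The folds of the 8 ranged from 0.713 for Junb (0.616 to 0.825) to 1.46 for Ifrd1 (0.987 to 2.17). The interval for Egr1 (0.824 to 1.07) held 1, and the share of all genes was not computed in this class. In myeloid-like cells, with 31 cells in the Cre library, the sum was 1.25-fold (1.17 to 1.33). Markers of other cell types also differed between the myeloid-like cells of the control and Cre libraries. Their sums were 3.87 and 55.8 CPM for fibroblasts, 3.87 and 48.9 CPM for smooth muscle, 85.1 and 223 CPM for endothelium and 503 and 83.8 CPM for T cells, and their part in the fold was not tested. The plot of member folds sets the folds of all kept cells beside those of tip-like and T cell-like cells.

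**Figure D3:**
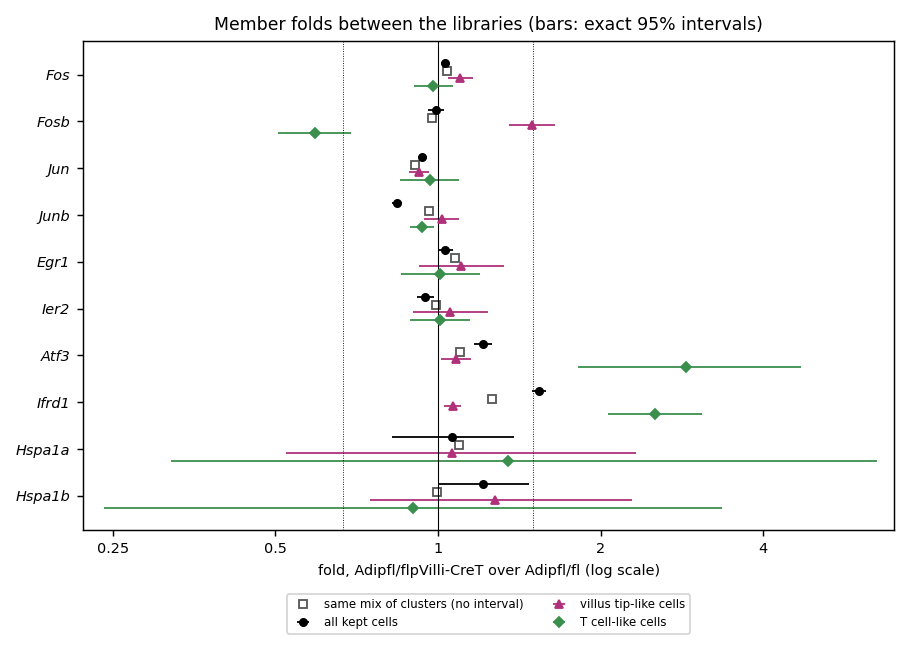
Fold of each gene between the Cre and the control library (x axis, log scale, solid line at 1 and dotted lines at 1.5-fold either way) over all kept cells (circles), with the clusters weighted alike (open squares, no interval), in villus tip-like cells (triangles) and in T cell-like cells (diamonds), with exact 95% intervals as bars. Ifrd1 is 1.54-fold over all kept cells, 1.26-fold with the control's mix of clusters applied to both libraries and 1.06-fold in tip-like cells.

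The share of mitochondrial UMIs rises in damaged cells and also differs between healthy cell types, so the genes were followed across it as a measure of cell handling. Levels across mitochondrial share are CPM of non-mitochondrial UMIs unless another total is named. The limit of 25% removed 4670 control and 4263 Cre barcodes with more than 500 genes. In these removed barcodes the sum of the 8 genes was 1.13 times (1.11 to 1.14) as high as in kept cells of the control library and 1.43 times (1.42 to 1.45) in the Cre library. Over all UMIs the ratios were 0.804 (0.794 to 0.815) and 1.07 (1.05 to 1.08), so the direction in the control library turned with the denominator. In the control library 2 of 8 members were at least 1.5-fold above kept cells, Jun (1.69 times) and Ifrd1 (1.96 times), where 25.4% of 3892 genes were, and 3 were at least 1.5-fold below, Fosb (0.615 times), Egr1 (0.372 times) and Ier2 (0.591 times), where 31% of genes were. In the Cre library Jun (1.97 times), Atf3 (1.62 times) and Ifrd1 (2.52 times) were above, where 24.5% of 3802 genes were, and Egr1 (0.446 times) was below, where 31.1% of genes were. The Hsp70 sum was 0.999 times (0.777 to 1.28) that of kept cells in the control and 1.33 times (1.09 to 1.62) in the Cre library.

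Across bins of mitochondrial share Jun climbed from 415 CPM in control cells under 5% to 1130 at 20 to 25%, while Egr1 was at 255 under 5%, 273 at 5 to 10% and 115 at 20 to 25%. Ifrd1 rose from 78.2 under 5% to 744 at 15 to 20% and was at 497 between 25 and 50%. These bins hold different mixes of cells, since villus tip-like cells mostly lie above 15%. Levels within classes are CPM of all UMIs, a total that includes the mitochondrial UMIs that rise over the bins. In villus tip-like control cells the sum of the 8 genes was 6313, 5991 and 5688 CPM at 10 to 15, 15 to 20 and 20 to 25%. In Cre cells it was 6477, 6287 and 6008 CPM. Whether the sum changed relative to non-mitochondrial UMIs within this class was not tested. Egr1 in tip-like control cells was at 87.1, 78.5 and 83.3 CPM over the same bins. In villus bottom-like cells the sum was at 1978 CPM under 5% and 2334 CPM at 5 to 10% in the control library.

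**Figure D4:**
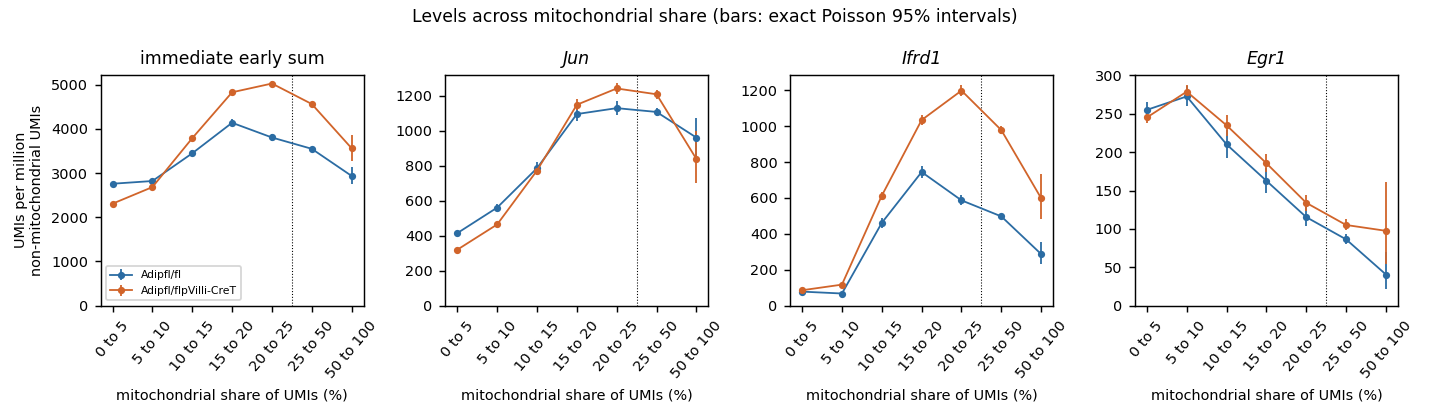
Level of the summed 8 immediate early genes, Jun, Ifrd1 and Egr1 (y axis, CPM of non-mitochondrial UMIs, from 0) in bins of mitochondrial share (x axis, percent of UMIs) for the control (blue) and Cre (orange) libraries, with exact Poisson 95% intervals and the 25% limit as a dotted line. Jun rises from 415 to 1130 in control cells up to the limit, while Egr1 is at 273 in the 5 to 10% bin and at 115 just below the limit.

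The number of cells that held a gene's UMIs depends on how many UMIs there were, and Fos (18417 UMIs in the control) and Hspa1a (90 UMIs) are therefore not compared. The 1% of control cells with the most Fos UMIs held 10.5% of them, and 345 cells were needed to reach 50% of all Fos UMIs. These counts were not scaled to the depth of a cell. Median depth in the control was 24632 UMIs in villus bottom-like and 3880 UMIs in villus tip-like cells. The part of depth in these counts was not tested. For Hspa1a 12 control cells and 39 Cre cells reached 50%, and the top 1% held 71.1% and 59.3% of the UMIs, with at most 9 UMIs in 1 cell. At 2000 UMIs, Hspa1a was found in 25 control and 36 Cre cells and Hspa1b in 39 and 88 cells, and 1 cell in each library had both. Fos was found in 71.4% of control cells with Jun against 62.7% of all control cells, and in 77.6% of control cells with Egr1.

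Lists of further AP-1, immediate early, feedback, stress and heat shock genes were read beside the members, and few of their genes stood apart between the libraries. Over all 3264 genes, 0.643% were at least 1.5-fold higher and 2.05% at least 1.5-fold lower. None of the 4 further AP-1 genes at 50 CPM passed 1.5-fold (Jund 1.11, Mafk 1.11 and Fosl2 1.08), and none of 4 stress and growth arrest genes did (Cdkn1a 1.13, Mcl1 1.07 and Gadd45a 0.961). Among 7 other immediate early genes 1 was lower in the Cre library, the nuclear receptor Nr4a2 (74.7 and 41.6 CPM, 0.557-fold), while Btg1 was at 0.820 and Klf6 at 1.21. Nr4a2 was at 554.5 and 525 CPM in T cell-like cells and at 1.01 and 4.10 CPM in villus tip-like cells, and T cell-like cells were 361 of 3069 control and 438 of 5555 Cre cells. Among 8 feedback genes 1 was higher, the serum and glucocorticoid-induced kinase Sgk1 (120 and 214 CPM, 1.78-fold, 1.71 to 1.85), while the RNA-binding repressor Zfp36l1 was at 0.788 and the MAP kinase phosphatase Dusp1 at 0.792. Sgk1 was at 218 and 479 CPM in villus tip-like cells, 197 and 306 CPM in mid-villus-like cells and 25.5 and 52.8 CPM in villus bottom-like cells. It was also higher in T cell-like cells (24.1 and 63.0 CPM, 2.61-fold) and goblet-like cells (62.3 and 108 CPM, 1.74-fold) of the Cre library.

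None of the 7 heat shock genes at 50 CPM passed 1.5-fold (Dnaja1 1.18, Hsp90aa1 0.857 and Hspd1 1.10). Along the villus, 5 of 6 other immediate early genes were at least 2-fold higher in tip-like than bottom-like cells in each library, among them Klf4 (1369 and 70.5 CPM in the control), and 0 of 8 heat shock genes were, where 18.6% of all genes were in the control and 18.1% in the Cre library. The counts were 2 of 5 in both libraries for the further AP-1 genes, 2 of 9 (control) and 4 of 10 (Cre) for feedback genes and 1 of 5 (control) and 2 of 5 (Cre) for stress and growth arrest genes. Hspa8, the constitutive Hsp70, was at 68.1 CPM in tip-like and 561 CPM in bottom-like control cells.

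The genes whose levels were most like those of the members over the 24 points, among 7434 genes, differed by member. For Fos these were Ncoa4 (r = 0.92), Zfp36 (0.88) and Jun (0.86), for Jun they were Rhob (0.94), Tppp3 (0.90) and Itprid2 (0.89), and for Atf3 they were Rhob (0.92), Trib1 (0.89) and Zfp36 (0.88). Ifrd1 was most like Ly6m (0.97), Ada (0.96) and Lama3 (0.95), and Junb most like Fgl2 (0.94), Pecam1 (0.92) and Csrnp1 (0.91). For Egr1 they were Ier2 (0.94), Ece1 (0.86) and Dapk1 (0.86), for Ier2 they were Egr1 (0.94), Klf2 (0.90) and Cd164 (0.89), and for Fosb they were Hk2 (0.83), Egr1 (0.82) and Tnfrsf21 (0.82). Hspa1a was most like Cd79a, Ifitm1 and Il1rn (each 0.96) and Hspa1b most like Ppp1r14a (0.86), Il1rn (0.84) and Ebf1 (0.84), with most points of both Hsp70 genes resting on few UMIs. Hspa1a was at 65.8 and 76.8 CPM in myeloid-like cells and at most 6.32 and 5.89 CPM in the other classes. Its correlations therefore rest mainly on the myeloid-like points. These correlations are descriptions over classes that share libraries.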

How the data were processed

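The authors converted reads with bcl2fastq 5.0.1 and deposited raw UMI counts per gene and barcode made with Cell Ranger (version 7.1.0 per the file headers, build mm10 per the submitters' notes). The annotation release is not given in the sources used here. The 10 members and all lists were chosen with earlier results of these data known. Cells needed over 500 genes and less than 25% mitochondrial counts, which left 3069 of 9791 control and 5555 of 11838 Cre barcodes, whose counts were processed in Seurat 5.3.0 (R 4.3.3) with LogNormalize, 2000 variable genes without the members and the 5 related lists, 20 principal components and Louvain resolution 0.8. Stem and cycling clusters were split again at resolution 0.4. A class name needed 3 listed markers at least 2-fold higher with at least 10 UMIs each. It was passed over where the leading genes held more markers of another class, as in cluster 1 (3 of 8 villus tip markers). Stem and cycling names were not given beside T cell markers, as in cluster 10. Crypt sub-clusters with under 5% of their cells in 1 library stayed unnamed. These were c2 (12 of 12 cycling markers) and c3 (8 of 12). B cell or plasma-like cells were below the 30 cells required in each library. Scrublet (scanpy 1.11.5) called 3 and 2 cells, too few to have worked, so doublets stayed in, and an alternative dropped the top 8% by score.

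Folds are ratios of summed counts with exact conditional Poisson 95% intervals, shares have exact Clopper-Pearson 95% intervals, and an arm with 0 UMIs was set to 3. A gene was called at 1.5-fold with at least 50 CPM in the higher library and 20 UMIs in all. Depth was 25687687 and 48895126 UMIs over the kept cells. Likeness was the Pearson r of log2(CPM + 10). All members were named, with the 3 genes most like each and, of each related list, the 3 with the largest fold at 50 CPM, while Klf4, Hspa8, Ada, Apoa1, Apoa4, Slc28a2, Nt5e, Hspe1, Dnajb1 and Acta2 were named after their values were seen. On simulated counts of all kept cells (3130 genes), 100% of 100 genes changed 2-fold and 99% of 100 changed 1.6-fold were called and 94.7% of intervals held the true fold. In villus tip-like cells (2093 genes) these were 99%, 83% and 95.9%. The simulated counts came from the Poisson model that the intervals assume, without spread between cells or between libraries. They therefore check the calculation and not how well the intervals hold for the real counts. Alternatives changed the gene minimum, the mitochondrial limit and gene set, the denominator, cell weights, rich cells, doublets, fold rule, clustering and thinning. Those with clusters weighted alike and without sub-cluster c2 were chosen after seeing the data. Python 3.11.15, scipy 1.17.1 and matplotlib 3.10.9 were used.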

Additional observations from a re-analysis of the deposited data

Results flagged for a closer look

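Fosb had opposite differences between the libraries in 2 classes. It was 1.66-fold in the Cre library in tuft-like cells (76 and 62 cells) and 0.592-fold in T cell-like cells (361 and 438 cells). The difference between the classes was not tested, since each genotype has 1 library. As means of per-cell CPM the folds were 2.73 and 0.714.

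The crypt sub-cluster c2 held 56 cells of the Cre library and none of the control, so it entered the sums over all kept cells but no comparison within a class. Its Hspa1a and Hspa1b sum was 151 CPM, from 56 UMIs in 27 cells, against 9.50 CPM over all kept control cells. Its leading genes included the cycling genes Top2a and Mki67 and the smooth muscle actin gene Acta2 (146 CPM in c2 and 4.74 CPM in the other Cre cells). The chaperones Hspd1 (836 and 176 CPM in c2 and the other Cre cells), Hspe1 (855 and 218 CPM) and Hsp90aa1 (537 and 175 CPM) were higher there as well, while Dnajb1 was at 59.3 and 44.5 CPM. The other Cre cells are a mix of classes. In villus tip-like and villus bottom-like Cre cells Hspd1 was at 7.13 and 244 CPM and Hspe1 at 3.57 and 322 CPM. These chaperones were not compared with those of stem-like and cycling-like cells. Without c2 the Hsp70 fold over all kept cells was 1.04 (0.893 to 1.22).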

How the results depend on the processing

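No paired analysis was possible because each genotype has 1 library and no replicate numbers, and leaving out a replicate was not possible either. The summed immediate early fold between the libraries (1.02) was 0.888 under a mitochondrial limit of 10%, 1.10 with the mitochondrial share taken from 13 protein-coding genes and 1.09 as a mean of per-cell CPM, so its direction depends on the limit. The number of members at least 1.5-fold apart (1, Ifrd1) was 0 under the limit of 10%, 0 under a 2-fold rule and 0 with clusters weighted alike. The ratio of the sum in villus tip-like over villus bottom-like cells in the control and Cre libraries (2.76 and 3.002) was 2.32 and 2.73 with more than 1000 genes, 1.13 and 2.30 under the limit of 10%, 2.08 and 2.44 with 13 mitochondrial genes, 3.21 and 3.50 over non-mitochondrial UMIs, and 2.99 and 3.10 as per-cell means. It was 2.57 and 2.77 without the richest 1% of cells, 2.53 and 2.83 at resolution 0.4, 2.63 and 2.90 at resolution 1.2, 2.22 and 2.61 with 30 principal components, and 2.36 and 2.66 with the members among the variable genes. Where the gene minimum, the mitochondrial limit or gene set, or the clustering changed, the cells were clustered and named again, so the classes hold other cells. The cause of these differences was not tested. The Hsp70 fold stayed within its interval in each of these alternatives that gave one (1.003 to 1.27). Folds within classes were also computed over non-mitochondrial UMIs, as means of per-cell CPM and without the richest 1% of cells. The mitochondrial limit and the clustering were not varied for them. Of 276 alternative values of 92 folds, 243 lay inside the interval of the fold and 33 outside. A reversal was counted only for folds of at least 1.5 either way whose interval left out 1, and there were 0. Depth limits the Hsp70 genes most, with 90 to 355 UMIs per gene and library.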

Other observations

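The 30 control and 29 Cre cells with B cell or plasma cell markers were too few for the comparisons above. In them the sum of the 8 immediate early genes was 3155 CPM in the control (792 UMIs) and 1496 CPM in the Cre library (390 UMIs). Fos was at 1454 and 671 CPM, Fosb at 458 and 119 CPM, Jun at 657 and 238 CPM, and Junb at 231 and 226 CPM. The cluster also carried 5 of the 7 listed myeloid markers, whose sum was at 3581 CPM in the control and 2125 CPM in the Cre library. The summed T cell markers were at 462 CPM in the control and 3924 CPM in the Cre library. The part of these other cell types in the values was not tested.

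Barcodes with at most 500 genes (2052 in the control and 2020 in the Cre library) were not counted as cells. In CPM of non-mitochondrial UMIs, the sum of the 8 genes in them was 1908 in the control and 3305 in the Cre library, Ifrd1 was at 341 and 958, Jun at 480 and 595 and Egr1 at 74.7 and 95.9.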
